A study of Homo sapiens with 6 samples.

Results

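The MYC, MAX, MXD network and the MYB family were followed through the conversion of B cell leukemia cells into macrophages, with and without CTCF. The members were taken by symbol from the table of raw counts: MYC, MYCN, MAX, MXD1, MXD3, MXD4, MXI1, MNT, MYB and MYBL2. All 10 were among the 30017 genes listed, and 9 of them passed the filter on low counts that kept 14758 genes for testing. MYCN, the neural paralogue of MYC, did not pass it.

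MYC is a basic helix-loop-helix leucine zipper factor that binds E-box DNA as a heterodimer with MAX and raises the expression of genes for ribosome synthesis, metabolism and cell growth. MXD1, MXD3, MXD4, MXI1 and MNT also pair with MAX, bind the same E-boxes and recruit SIN3 and histone deacetylases, so that the balance between MYC and these partners is thought to set the output of shared targets. MYB is a separate factor that maintains proliferating blood progenitors and commonly declines as they mature, whereas its paralogue MYBL2 joins the MuvB complex to switch on genes of mitosis in dividing cells.

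RNA-seq was performed on total RNA, depleted of ribosomal RNA, from BLaER1-CTCF-mAID cells, a single subclone of the BLaER1 line of B cell leukemia that carries a transgene for the factor C/EBPα and, in all libraries, an auxin-inducible degron on CTCF. The groups were uninduced cells (0 h), cells 96 h after induction of transdifferentiation with 17β-estradiol, IL-3 and CSF-1 and without auxin (96 h control), and cells at 96 h that received the auxin indole-3-acetic acid (IAA) together with these factors (96 h CTCF-depleted). Each group held 2 replicates. A line without the degron was not treated with IAA among these libraries, so effects of the auxin itself and of CTCF loss cannot be told apart.

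Total counts were 9273470 to 12718780 per library, and the replicates of each group differed by more than counting noise. The 6 B cell markers examined summed to 2150 to 2169 CPM (counts scaled to a common library size) at 0 h, 385.9 to 391.2 CPM in controls and 339 to 354.9 CPM in CTCF-depleted cells, and all 6 were still detected at 96 h. The 6 macrophage markers summed to 34.95 to 38.68, 4916 to 5160 and 4787 to 4812 CPM in the same order, and FCGR1A, the high-affinity Fc receptor, was at 0 counts in both libraries at 0 h. LYZ alone averaged 4527 CPM in controls and 4158 CPM in depleted cells, so the sums at 96 h mostly follow this gene. Between the 96 h groups, 4 of the 6 macrophage markers lay above 0 in log2 fold change and 2 below. Of these, ITGAM was called higher, with means of 128.1 CPM in controls and 284.7 CPM in depleted cells (1.15). Of 4 T and NK cell markers, CD3D, CD3E and CD8A had at most 2 counts in any library. NKG7 had 24 and 38 counts at 0 h, 395 and 373 in controls, and 294 and 318 in depleted cells. It was called higher in both 96 h groups against 0 h (log2 fold changes 3.68 and 3.39). All 3 erythroid markers were at 0 counts. CTCF mRNA itself averaged 222.1, 177.2 and 189.9 CPM, and did not pass the thresholds in any comparison. The degron acts on the protein, so this mRNA does not check depletion. In such bulk samples, fewer cells of a type and less RNA per cell cannot be told apart, and the part of these marker changes in the results below was not tested.

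Levels below are CPM after TMM scaling, and fold changes with their standard errors (SE) come from the quasi-likelihood test of edgeR fitted to all 6 libraries. A gene is described as higher or lower, or as having risen or fallen, where its adjusted p was below 0.01 and its log2 fold change exceeded 0.6 in size, the thresholds of the study's methods. The labels number the replicates without naming separate cultures, so p-values measure the spread between these libraries. The fit shares its estimate of spread across genes (51.7 prior degrees of freedom), so SEs do not rest on a gene's own libraries alone.

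MYC, which lies at chr8:127735434-127742951 on the plus strand (hg38; all positions are from GENCODE release 44), fell over differentiation. It measured 532 and 467 CPM at 0 h, 116 and 113 CPM in the 96 h controls, and 154 and 167 CPM in the CTCF-depleted libraries. The 3 groups did not overlap, and both depleted libraries lay between the other two groups. The log2 fold change from 0 h to control was -2.12 (SE 0.0542, adjusted p = 5.13e-40), a 4.36-fold drop, and from 0 h to CTCF-depleted cells it was -1.64 (SE 0.0524, adjusted p = 3.49e-35), a 3.11-fold drop. Compared directly with the controls, CTCF-depleted cells had 1.4 times as much MYC RNA (log2 fold change 0.49, SE 0.0576, adjusted p = 3.71e-10), which passed the p threshold but not the fold threshold (95% interval 0.37 to 0.60 on the log2 scale).

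MYCN was close to undetectable, with 2 and 1 counts at 0 h, 1 and 5 counts in controls, and 0 and 1 counts in depleted cells. A count of 0 is compatible with up to 3 counts, or 0.225 to 0.309 CPM in these libraries, and such limits cover counting error only. No direction was read from these values.

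MAX, the obligate partner of both arms of the network, had 82.3 and 82 CPM at 0 h, 125 and 131 CPM in controls, and 117 and 123 CPM in depleted cells. Both groups at 96 h lay above 0 h and did not overlap with each other. MAX rose by a log2 fold change of 0.64 in the controls (SE 0.0623, adjusted p = 8.57e-14), whereas the value of 0.54 in depleted cells (SE 0.0628, adjusted p = 2.43e-11) remained under the fold threshold. The call in the controls was close to that threshold: without 0 h replicate 2, the value was 0.60 and no longer passed. Between the 96 h groups the difference was -0.10 (SE 0.0604, adjusted p = 0.203).

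Of the repressive partners, MXD1 had the largest change. MXD1, an antagonist of MYC that is induced in many maturing cells, was measured at 4.44 and 5.93 CPM at 0 h, 126 and 128 CPM in controls, and 87.3 and 86.9 CPM in depleted cells. The 3 groups were well separated, with the controls highest. It rose 24-fold in the controls (log2 fold change 4.59, SE 0.105, adjusted p = 1.89e-42) and 16.4-fold in the depleted cells (4.04, SE 0.109, adjusted p = 6.43e-39). The depleted cells had 1.46-fold less MXD1 RNA than the controls (log2 fold change -0.55, SE 0.0696, adjusted p = 2.52e-09; 95% interval -0.69 to -0.41), which did not pass the fold threshold. The exons of MXD1 overlap those of SNRNP27 on the same strand, so reads in the shared part cannot be assigned with certainty.

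MXD4, a further MXD repressor, measured 32.8 and 31.1 CPM at 0 h, 77 and 89.8 CPM in controls, and 91 and 87 CPM in depleted cells. Both 96 h groups were above 0 h, and they overlapped with each other. The log2 fold changes from 0 h were 1.39 (SE 0.0824, adjusted p = 2.28e-22) and 1.48 (SE 0.0821, adjusted p = 8.95e-24), and the difference between the 96 h groups was 0.09 (SE 0.0737, adjusted p = 0.336; 95% interval -0.05 to 0.24).

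MNT, the broadly expressed repressor of the network, had 64.8 and 63.7 CPM at 0 h, 96.9 and 102 CPM in controls, and 88.9 and 88.2 CPM in depleted cells. The depleted libraries lay between the other groups, without overlap. The rise in the controls was 0.63 on the log2 scale (SE 0.069, adjusted p = 4.94e-12), and dropped to 0.57 without 0 h replicate 2 and to 0.60 without control replicate 2, both short of the threshold. In depleted cells the value was 0.46 (SE 0.0698, adjusted p = 3.46e-08), and the difference between the groups at 96 h was -0.17 (SE 0.0671, adjusted p = 0.0438).

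MXD3, the MXD protein associated with proliferating rather than maturing cells, measured 26 and 25.2 CPM at 0 h, 32.3 and 33.3 CPM in controls, and 38.6 and 38.5 CPM in depleted cells. The groups were ordered without overlap, but the steps were small: 0.36 (SE 0.0914, adjusted p = 0.0004) from 0 h to control, 0.59 (SE 0.0895, adjusted p = 3.74e-08) from 0 h to depleted, and 0.23 (SE 0.0865, adjusted p = 0.0274) between the 96 h groups. The value of 0.59 was just under the threshold and became 0.64 without 0 h replicate 1 and 0.62 without depleted replicate 2. MXD3 overlaps PRELID1 on the opposite strand, and whether the counting used strand is not given in the sources used here.

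MXI1, which is also known as MXD2, had 23.5 and 20 CPM at 0 h, 22.2 and 20.3 CPM in controls, and 29.5 and 26.9 CPM in depleted cells. The 0 h and control libraries overlapped, and both depleted libraries were above them. The log2 fold changes were -0.02 (SE 0.111, adjusted p = 0.847; 95% interval -0.25 to 0.20) from 0 h to control, 0.39 (SE 0.107, adjusted p = 0.00105) from 0 h to depleted and 0.41 (SE 0.108, adjusted p = 0.00159) between the 96 h groups, with none past the fold threshold.

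MYB, at chr6:135181308-135219173 on the plus strand, fell less than MYC. It was measured at 553 and 587 CPM at 0 h, 330 and 328 CPM in controls, and 316.0 and 316.2 CPM in depleted cells. All 4 libraries at 96 h were below those at 0 h, and the groups at 96 h were close together. The log2 fold changes from 0 h were -0.79 (SE 0.0454, adjusted p = 4.07e-23) in controls and -0.85 (SE 0.0456, adjusted p = 1.9e-24) in depleted cells, corresponding to 1.73-fold and 1.8-fold drops. The difference between the 96 h groups was -0.06 (SE 0.0466, adjusted p = 0.364), with a 95% interval of -0.15 to 0.04.

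MYBL2 was the member that passed both thresholds in every comparison. It measured 372 and 353 CPM at 0 h, 81.9 and 83.6 CPM in controls, and 48.8 and 46.4 CPM in depleted cells. The groups were ordered without overlap, with the CTCF-depleted cells lowest. MYBL2 fell 4.38-fold in the controls (log2 fold change -2.13, SE 0.0546, adjusted p = 6.28e-40) and 7.61-fold in the depleted cells (-2.93, SE 0.059, adjusted p = 3.41e-45), and was 1.74-fold lower in depleted cells than in controls (-0.80, SE 0.0659, adjusted p = 2.46e-15).

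**Figure D1:**
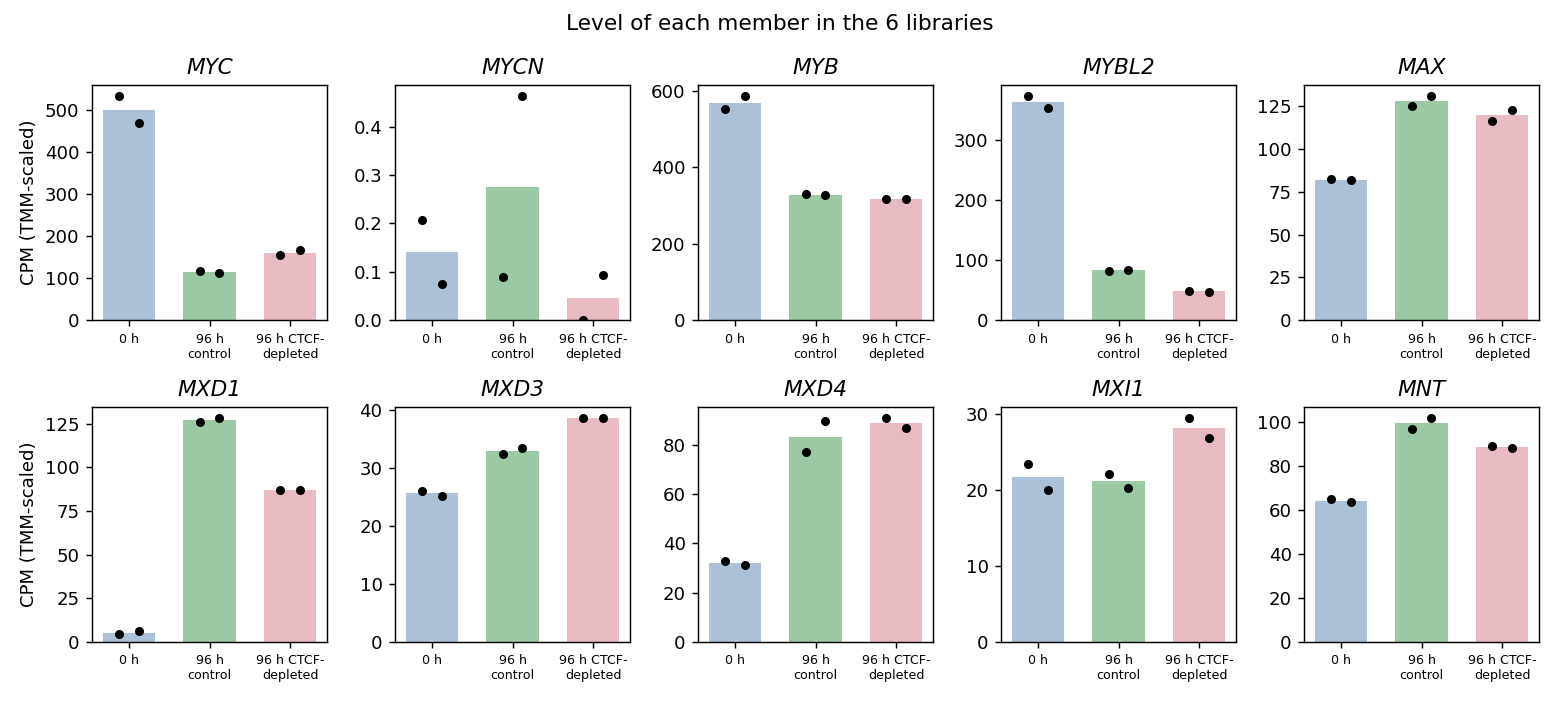
CPM after TMM scaling of the 10 members at 0 h, in 96 h controls and in 96 h CTCF-depleted cells, each panel on its own linear axis from 0. Dots are the 2 libraries of a group and bars their mean. MYC, MYB and MYBL2 were highest at 0 h, MXD1 was highest in the controls, and MYCN stayed at or below 5 counts in every library.

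Counted over the network, 4 of the 9 tested members rose in the controls (MAX, MXD1, MXD4 and MNT), 3 fell (MYC, MYB and MYBL2) and 2 were not called (MXD3 and MXI1). Among all 14758 tested genes, 25.4% rose and 22.9% fell in this comparison, or 48.3% in either direction, so calls were common throughout the transcriptome. In CTCF-depleted cells against 0 h, 2 members rose (MXD1 and MXD4) and 3 fell (MYC, MYB and MYBL2), beside 27.2% and 25.2% of all genes, or 52.5% in either direction. Between the 96 h groups, 1 member was lower (MYBL2) and 0 were higher, where 7.03% of all genes were lower and 5.41% higher. By adjusted p alone, 8 of 9 members differed between 0 h and controls, 9 between 0 h and depleted cells, and 4 between the 96 h groups (MYC, MXD1, MXI1 and MYBL2), beside 68.2%, 71.0% and 29.4% of all genes. DESeq2 gave 7, 8 and 3 members by this rule, without MXD3 in controls against 0 h (adjusted p = 0.0273) and without MXI1 in depleted cells against 0 h (adjusted p = 0.0427) or against controls (adjusted p = 0.0522). MXI1 was also lost without 0 h replicate 2 or depleted replicate 1 in the former comparison and without control replicate 2 or depleted replicate 1 in the latter, and MXD3 without 0 h replicate 2. Libraries of the groups did not overlap for 8, 9 and 8 members in these comparisons, beside 86.7%, 87.8% and 67.9% of all genes, so separation of 2 libraries from 2 was the usual case. DESeq2 also called 0 members higher between the 96 h groups at both thresholds. The median log2 fold change of the tested members was 0.36, 0.46 and -0.06 in the 3 comparisons, beside 0.02, 0.02 and -0.03 over all genes tested. The comparisons share libraries and are not independent.

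**Figure D2:**
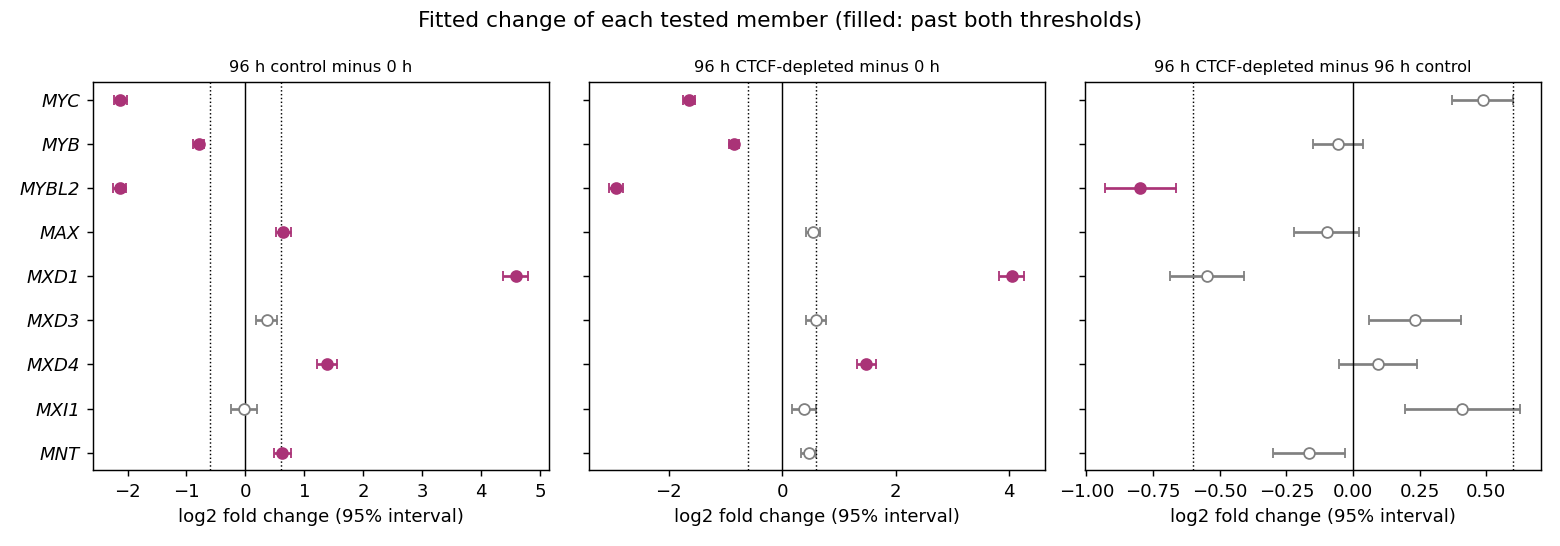
Log2 fold change of the 9 tested members in 3 comparisons, with 95% intervals. Filled points passed both thresholds and dotted lines mark the fold threshold of 0.6 in either direction; each panel has its own axis. MXD1 stands at 4.59 and 4.04 against 0 h, and MYBL2 at -0.80 is the filled point between the 96 h groups.

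To compare members with each other, CPM values were divided by exon length in kilobases. On this per-length scale, the order of levels at 0 h was MYBL2 (131), MYB (124), MYC (93.5), MAX (20), MNT (12.9), MXD3 (8.79), MXD4 (8.26), MXI1 (4.69), MXD1 (0.877) and MYCN (0.0538). MYBL2 and MYB did not differ beyond the range of their libraries, whereas every later pair of neighbours was separated. In the 96 h controls, MYB came first with a per-length level of 71.2, followed by MAX at 31.2 and MYBL2 at 29.8. The levels of MXD4 (21.6), MXD1 (21.5) and MYC (21.4) overlapped in the controls, and MNT (20), MXD3 (11.3), MXI1 (4.57) and MYCN (0.105) followed. In CTCF-depleted cells the order was MYB (68.5), MYC (30), MAX (29.1), MXD4 (23), MNT (17.8), MYBL2 (17.2), MXD1 (14.7), MXD3 (13.2), MXI1 (6.08) and MYCN (0.0176), with overlap between MYC and MAX. MYC thus held rank 3 at 0 h, rank 6 in controls and rank 2 in depleted cells, and MXD1 held ranks 9, 5 and 7. These orders depend on the transcript length assumed: with the canonical transcript in place of all exons, MYB came first in all 3 groups, and MYC ranked 3, 4 and 3.

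The ratio of MYC to the summed per-length levels of the 5 repressors was 2.74 and 2.51 at 0 h, 0.284 and 0.259 in controls, and 0.38 and 0.421 in depleted cells. Per length, MYC RNA thus exceeded the summed RNA of these 5 repressors at 0 h and lay below it at 96 h, in each library. MYCL and MGA, listed below with the extended network, are not part of this ratio. The mean ratio was 2.63 ± 0.167 (SD, n = 2) at 0 h, 0.271 ± 0.0171 in controls and 0.401 ± 0.029 in depleted cells. The exact permutation test of 2 libraries against 2 cannot give a p under 0.05, so ratios are given as descriptions.

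The shift was unequal across repressors. The mean ratio of MYC to MXD1 went from 110 at 0 h (133 and 87.1) to 0.993 in controls and 2.03 in depleted cells. The ratio to MXD4 was 11.3, 1.0 and 1.31 in this order, and that to MNT was 7.23, 1.07 and 1.68. The ratio to MXI1 was 19.9, 4.69 and 4.95. The ratio to MXD3 was 10.6, 1.9 and 2.26, but 5.6, 1.0 and 1.19 with the length of the canonical transcript, on which scale MXD3 was the highest of the 5 repressors in every group, and 19.5, 3.49 and 4.16 without division by length. MXD1 made up 2.47% of the repressor sum at 0 h, 27.3% in controls and 19.7% in depleted cells, whereas the share of MNT was 36.4%, 25.3% and 23.8%. The ratio of MAX to the sum of MYC and these 5 repressors was 0.155 at 0 h, 0.311 in controls and 0.278 in depleted cells. With canonical lengths it was 0.219, 0.482 and 0.413. For the MYB family, the ratio of MYB to MYBL2 was 0.947, 2.39 and 4 in the same order, and 1.57, 3.97 and 6.64 without division by length.

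**Figure D3:**
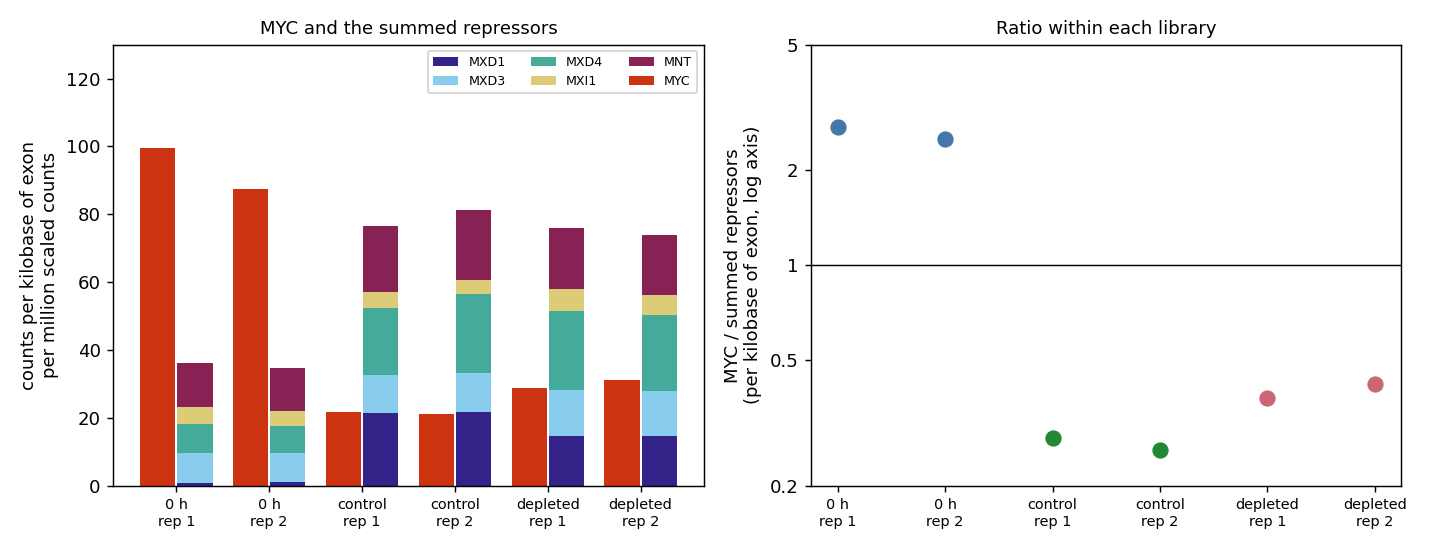
Left, per-length level of MYC beside the stacked levels of MXD1, MXD3, MXD4, MXI1 and MNT in each of the 6 libraries. Right, the ratio of MYC to the repressor sum on a log axis, which was above 2.5 in both libraries at 0 h and below 0.43 in the 4 libraries at 96 h.

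Promoter sequences of the members were read from RefSeq (GRCh38.p14), which gave 12 windows for 9 members, and none for MYC. The 250 bases before each start were searched on both strands for CACGTG, the E-box that MYC and MXD dimers with MAX prefer, which 6.34% of 35116 RefSeq promoter windows contained. MXD4, MNT and MYBL2 contained it, and MYCN, MAX, MXD1, MXD3, MXI1 and MYB did not. In the fits above, 2 of these 3 genes (MXD4 and MNT, the latter close to the fold threshold) rose in the controls and the third (MYBL2) fell. Of the members without the E-box, MAX and MXD1 also rose, MYB also fell, and MXD3 and MXI1 were not called. Among all tested genes, 25.4% rose and 22.9% fell, and a link between the letters and direction was not tested. The sequences of MXD4, MNT and MYBL2 are shown because these members of the network hold the letters its own dimers recognise. They are printed 5′ to 3′ on the gene's strand, up to the outermost annotated start, with the E-box in capitals. They are chr4:2262110-2262359 on the minus strand for MXD4, chr17:2401105-2401310 on the minus strand for MNT and chr20:43666864-43667018 on the plus strand for MYBL2.
MXD4: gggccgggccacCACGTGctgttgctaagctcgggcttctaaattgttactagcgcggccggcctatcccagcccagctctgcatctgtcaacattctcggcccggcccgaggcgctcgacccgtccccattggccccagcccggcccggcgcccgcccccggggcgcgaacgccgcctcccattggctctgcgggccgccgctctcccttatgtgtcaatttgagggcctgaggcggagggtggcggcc
MNT: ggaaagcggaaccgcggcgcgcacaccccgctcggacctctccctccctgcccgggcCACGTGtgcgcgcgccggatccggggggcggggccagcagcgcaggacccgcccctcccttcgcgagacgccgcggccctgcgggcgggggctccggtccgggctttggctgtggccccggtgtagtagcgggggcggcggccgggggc
MYBL2: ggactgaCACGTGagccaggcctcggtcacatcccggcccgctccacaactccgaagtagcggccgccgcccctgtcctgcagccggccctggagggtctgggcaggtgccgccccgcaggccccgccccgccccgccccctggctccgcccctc

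The E-box begins 238 bases before the RefSeq start of MXD4, 193 bases before that of MNT and 243 bases before that of MYBL2. A match describes the letters and not the binding of a factor.

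The windows were also searched for TTTGGCG or TTTCCCG, an E2F-type element, which 5.14% of all windows contained. MYB and MYCN contained it, at 61 and 176 bases before the start. The MYB promoter is shown because MYB is the member whose locus the study examined in detail. Its stretch is chr6:135181058-135181307 on the plus strand, with the E2F-type element in capitals.
MYB: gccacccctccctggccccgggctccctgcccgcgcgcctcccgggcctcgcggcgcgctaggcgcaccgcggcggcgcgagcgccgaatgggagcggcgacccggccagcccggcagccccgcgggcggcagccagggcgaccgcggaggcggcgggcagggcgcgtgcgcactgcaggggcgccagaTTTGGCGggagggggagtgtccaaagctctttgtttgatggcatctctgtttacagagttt

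The letters GGNGGCAG, part of the CTCF consensus, were present in 13.4% of windows and in those of MYB (125 bases before the start), MNT (50 bases) and MXI1 (76 bases, in 1 of its 3 windows). TAACNG, the MYB consensus, was present in 17.6% of windows and in those of MYCN and MXI1.

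Genes whose start lies within 500 kb of MYB or MYC were examined next, because the study perturbed a factor that organizes chromatin contacts. AHI1, a cilium gene whose start lies 317.1 kb from that of MYB (chr6:135283407-135498434, minus strand), had 50.4 and 50.9 CPM at 0 h, 27.7 and 28.7 CPM in controls, and 105 and 112 CPM in CTCF-depleted cells. The groups did not overlap, and the depleted cells were highest. AHI1 fell in the controls (log2 fold change -0.84, SE 0.085, adjusted p = 2.96e-13) and rose in depleted cells against 0 h (1.10, SE 0.0734, adjusted p = 2.86e-20), so that depleted cells had 3.85-fold more AHI1 RNA than controls (1.95, SE 0.0796, adjusted p = 8.48e-28). MYB, in contrast, differed by -0.06 between the same groups. HBS1L, a translation quality-control factor on the other side of MYB, had log2 fold changes of -0.34, -0.22 and 0.12 in the 3 comparisons and passed no fold threshold. ALDH8A1 was at 6 to 17 counts and was not called in any comparison.

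**Figure D4:**
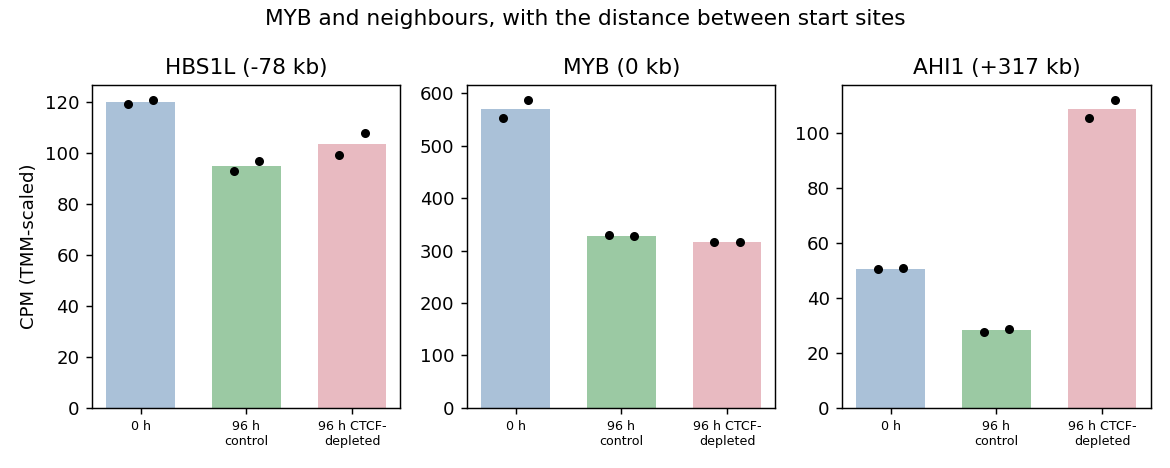
CPM of HBS1L, MYB and AHI1 in the 3 groups, with the distance of each start from that of MYB in kilobases. Dots are libraries and bars are means of 2. AHI1 has a mean of 109 CPM in CTCF-depleted cells and 28.2 CPM in controls, while MYB has 316 and 329 CPM.

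Near MYC, the long noncoding RNA PVT1 starts 59.1 kb downstream. PVT1 had 58.6 and 63.1 CPM at 0 h, 85.4 and 88.8 CPM in controls, and 72.9 and 72.1 CPM in depleted cells. Its log2 fold changes were 0.51 (SE 0.0727, adjusted p = 7.77e-09), 0.25 (SE 0.074, adjusted p = 0.00209) and -0.26 (SE 0.0717, adjusted p = 0.00222), each under the fold threshold and each opposite in sign to that of MYC. CASC11, which overlaps MYC on the opposite strand, had at most 12 counts and was not tested. The rows for MIR1204, MIR1205, MIR1206 and MIR1207 hold 8 to 75 counts and lie inside PVT1, so their reads cannot be told from those of the host transcript.

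The genes most like MYC in pattern, by the distance between log2 CPM values centred on each gene's mean over the 6 libraries, were GDF11 (distance 0.191), KCNJ2 (0.193) and C4orf32 (0.22). GDF11 had log2 fold changes of -2.16, -1.75 and 0.41, KCNJ2 of -2.03, -1.497 and 0.53, and C4orf32 of -2.23, -1.86 and 0.37. Those most like MYB were LINC01128 (0.0625), PPM1G (0.0669) and SRSF1 (0.0722). PPM1G had log2 fold changes of -0.76, -0.82 and -0.06, close to the MYB values of -0.79, -0.85 and -0.06.

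Other members of the extended network were followed from a list of 6 genes (MYCL, MLX, MLXIP, MLXIPL, MGA and MYBL1). In each 96 h group 2 of them rose against 0 h and 0 fell. Between the 96 h groups 0 were called by edgeR or by DESeq2, although MYCL was higher (0.76) without depleted replicate 2. For comparison with this and the following lists, 25.4% of all tested genes rose and 22.9% fell in controls. In depleted cells 27.2% of all genes rose and 25.2% fell against 0 h, and 5.41% were higher and 7.03% lower than in controls. MYCL, the third MYC paralogue, had 13 and 8 counts at 0 h, 129 and 141 in controls, and 218 and 172 in depleted cells. Its log2 fold changes were 3.72 (SE 0.268, adjusted p = 8.49e-19) and 4.28 (SE 0.25, adjusted p = 9.34e-23) against 0 h, and 0.56 (SE 0.153, adjusted p = 0.00237) between the 96 h groups. MYCL thus rose while MYC fell, but remained at 11.4 to 20.2 CPM at 96 h. MLXIPL, the glucose-responsive factor ChREBP, was at 0 counts in both 0 h libraries and at 10 to 13 counts at 96 h, at least 3.88-fold higher in controls and at least 3.63-fold higher in depleted cells, with 3 counts per library as the limit of detection.

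Of 10 coactivators of MYC and MYB, 2 rose and 2 fell in the controls (median log2 fold change -0.00), and 2 rose and 3 fell in the depleted cells (median 0.08). The histone acetyltransferases CREBBP and EP300, which bind the transactivation domain of MYB, rose by log2 fold changes of 0.67 (SE 0.0471, adjusted p = 4.37e-19) and 0.70 (SE 0.0472, adjusted p = 4.65e-20) in the controls, the first of which was 0.58 without 0 h replicate 2. The ATPases RUVBL1 and RUVBL2 fell by 0.80 and 0.79 on the log2 scale in controls, and by 1.21 and 1.19 in depleted cells. Between the 96 h groups, 0 of 10 were called by either tool, with 4 above 0 and 6 below (median -0.08). RUVBL1 was at -0.41 and RUVBL2 at -0.40, whereas KAT2A was at 0.48 (SE 0.0804, adjusted p = 1.77e-06), under the fold threshold. TRRAP, the scaffold of MYC acetyltransferase complexes, was at 325 to 339 CPM at 0 h and in controls and at 289 to 290 CPM in depleted cells.

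Of 8 corepressors used by the MXD proteins and MNT, 1 rose and 1 fell in controls, 2 rose and 1 fell in depleted cells, and 0 were called between the 96 h groups by either tool. NCOR1 also rose in controls (0.61) without 0 h replicate 2. The deacetylase HDAC2 fell by 1.01 on the log2 scale in controls (SE 0.0495, adjusted p = 3.99e-26) and by 1.12 in depleted cells (SE 0.05, adjusted p = 3.14e-28). SAP30, a subunit of the SIN3 complex, rose by 1.43 (SE 0.0857, adjusted p = 2.88e-22) and 1.01 (SE 0.0888, adjusted p = 2.02e-15). The scaffold SIN3A, which MXD proteins contact directly, had 189 to 198 CPM at 0 h. It had 191.5 and 191.6 CPM in controls and 159 to 166 CPM in depleted cells. SIN3B, in the same list, went the other way, with 57.7 and 62.3 CPM in controls and 78 and 79.1 CPM in depleted cells. Its difference between these groups was 0.39 (SE 0.074, adjusted p = 1.96e-05), under the fold threshold.

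Among 6 regulators of MYC protein stability, 2 rose and 2 fell in each 96 h group against 0 h, and 1 was higher and 0 were lower in depleted cells than in controls. Without 0 h replicate 2, or without depleted replicate 1, the call of USP28 in depleted cells against 0 h was lost (-0.67, then -0.51 and -0.56). PIM1, a kinase that stabilizes MYC, had 6.09 and 7.05 CPM at 0 h, 35.1 and 36.1 CPM in controls, and 100.2 and 101.0 CPM in depleted cells. PIM1 rose 5.36-fold and 15.1-fold against 0 h and was 2.82-fold higher in depleted cells than in controls (log2 fold change 1.497, SE 0.0771, adjusted p = 9.87e-24). SKP2, a ubiquitin ligase subunit for MYC, fell by 2.39 on the log2 scale in controls (SE 0.0806, adjusted p = 5.73e-34) and by 2.21 in depleted cells. FBXW7, which marks phosphorylated MYC for degradation, fell by 0.95 in controls (SE 0.0618, adjusted p = 1.27e-20), while its value in depleted cells was -0.42 (SE 0.0597, adjusted p = 9.72e-09) and the difference between the 96 h groups was 0.53 (SE 0.0633, adjusted p = 4.43e-10), under the fold threshold but above it without control replicate 2 (0.63) or depleted replicate 2 (0.61). GSK3B, a kinase whose mark on MYC is read by FBXW7, rose by 1.02 and 1.06 on the log2 scale.

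Genes known as MYC targets in ribosome biogenesis were mostly lower at 96 h. Of the 20 in the list, 15 fell and 1 rose in controls (median log2 fold change -0.93), and 16 fell and 1 rose in depleted cells (median -0.86). The nucleolar factors NOLC1, NPM1 and NOP56 and the growth regulator PA2G4 fell by 1.10, 1.06, 1.24 and 1.03 on the log2 scale in controls (adjusted p = 9.75e-29, 5.79e-29, 1.27e-29 and 6.66e-28). The exception was RRP12, a ribosome export factor, with 46 to 51.6 CPM at 0 h and 120 to 132 CPM at 96 h. Between the 96 h groups 0 of the 20 were called by edgeR or DESeq2, and the median difference was 0.02, with 12 above 0 and 8 below. The MYC difference was 0.49, also under the fold threshold. By adjusted p alone, NCL (-0.20), NOLC1 (-0.20), PA2G4 (-0.22) and WDR74 (-0.36) differed below 0 and POLR1B (0.40) above 0.

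Of 12 MYC targets in growth and metabolism, 9 fell and 1 rose in controls (median -1.08), and 8 fell and 1 rose in depleted cells (median -1.04). ODC1, the first enzyme of polyamine synthesis and a classical MYC target, fell 6.81-fold in controls (log2 fold change -2.77, SE 0.0529, adjusted p = 2.27e-46) and 8.47-fold in depleted cells. CAD, which starts pyrimidine synthesis, fell 2.9-fold and 2.98-fold, and the mitochondrial chaperone HSPD1 fell 2.72-fold and 2.85-fold. TERT, the catalytic subunit of telomerase, had 98.7 and 86.5 CPM at 0 h, 4.06 and 4.17 CPM in controls, and 1.85 and 1.38 CPM in depleted cells. Between the 96 h groups, TERT was lower by 1.34 on the log2 scale (SE 0.261, adjusted p = 2.86e-05), the transferrin receptor TFRC was lower by 0.69 (SE 0.0526, adjusted p = 8.9e-17) and CCND2, a D-type cyclin, was higher by 0.75 (SE 0.205, adjusted p = 0.00247). The CCND2 call was lost with DESeq2 (adjusted p = 0.104) and without either control replicate or depleted replicate 1 (edgeR adjusted p = 0.0347, 0.016 and 0.0466), and the TFRC value was -0.58 without control replicate 1, short of the fold threshold. CCND2 was the gene of the list that rose against 0 h, from 1 count in each 0 h library to 58 and 60 counts in controls and 104 and 90 in depleted cells.

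Of 5 MYB targets, 4 were tested, and 3 fell and 1 rose in each 96 h group against 0 h. BCL2, the survival factor, fell by 1.60 (SE 0.0606, adjusted p = 1.42e-31) and 1.87 on the log2 scale, and ADA, adenosine deaminase, by 1.29 and 1.60. KIT, the stem cell factor receptor, was at 20 and 50 counts at 0 h and at 0 or 1 count in each library at 96 h. GFI1, a repressor of myeloid and lymphoid genes, rose by 1.73 (SE 0.0906, adjusted p = 8.59e-25) and 1.58. CD34 had at most 1 count in any library. Between the 96 h groups 0 of these 4 were called by edgeR or DESeq2, although all 4 values were below 0 (median -0.29). BCL2 (-0.27, adjusted p = 0.001) and ADA (-0.31, adjusted p = 0.00542) passed the p threshold but not the fold threshold. The MYB difference was -0.06.

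MYBL2 acts with the MuvB core, and with FOXM1 later in the cycle. Of 10 genes of MuvB and the related DREAM complex, 1 rose and 0 fell in controls, although 2 fell without 0 h replicate 2 and 2 without control replicate 1, and LIN37 also rose without 0 h replicate 1. In depleted cells 2 rose and 6 fell against 0 h, and 3 were lower than in controls. DESeq2 gave 1, 5 and 2 genes for these counts, without the calls of LIN37, LIN52 and RBL1. The call of LIN37 (adjusted p = 0.00909) was also lost with the replicate block (adjusted p = 0.0107), in a fit of the 4 libraries compared, and without 0 h replicate 2 or depleted replicate 1, the last of which also ended that of LIN52. FOXM1 had 147 to 153 CPM at 0 h, 99.9 and 105 CPM in controls and 58.6 and 59.7 CPM in depleted cells. The last step was -0.79 on the log2 scale (SE 0.0668, adjusted p = 5.75e-15), beside -0.80 for MYBL2. LIN9, a MuvB subunit, was lower in depleted cells than in controls by 0.91 (SE 0.127, adjusted p = 3.34e-08), and the pocket protein RBL1 by 0.61 (SE 0.0736, adjusted p = 7.31e-10). RBL1 was at the fold threshold, and its value was -0.59 with DESeq2 and -0.52 to -0.58 without either control replicate or depleted replicate 1, no longer past it. RBL2, the pocket protein of quiescent cells, rose by 0.89 and 0.88 on the log2 scale against 0 h.

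The 10 mitotic genes, targets of the complexes that MYBL2 and FOXM1 join, followed the same order of groups as MYBL2. In controls 8 fell and 0 rose against 0 h (median log2 fold change -0.67), in depleted cells all 10 fell (median -1.46), and 8 were lower in depleted cells than in controls (median -0.70, beside -0.03 over all genes). TOP2A, topoisomerase II alpha, measured 465 and 467 CPM at 0 h, 296 and 300 CPM in controls, and 175 and 172 CPM in depleted cells. The differences between the 96 h groups were -0.78 for TOP2A (SE 0.0481, adjusted p = 2.3e-20), -0.70 for the checkpoint kinase BUB1 (SE 0.0633, adjusted p = 5.22e-14), -0.83 for the kinetochore motor CENPE (SE 0.0624, adjusted p = 6.51e-17) and -0.78 for CDC20, an activator of the anaphase-promoting complex (SE 0.0846, adjusted p = 2.19e-11). MYB, MXD4 and MAX were not called between the same groups.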

How the data were processed

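RNA-seq counts were deposited by the authors as raw counts per gene, without normalization. Per the labels' processing notes, reads were aligned to hg38 with STAR 2.6.1d and counted with featureCounts 2.0.6; the study's methods describe protein-coding exons. The annotation release and the strand setting are not given in the sources used here.

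The counts were fitted with edgeR 4.0.16 under R 4.3.3 (filterByExpr, TMM, a quasi-likelihood fit of all 6 libraries with group as the term, and Benjamini-Hochberg adjustment over 14758 genes). DESeq2 1.42.0 served as an alternative. The script was tested on simulated data. Log2 CPM used a prior count of 2. Lengths are the union of exons in protein-coding transcripts of GENCODE release 44. The replicate numbers were not used as pairs in the main fit. The deviations of same-numbered libraries correlated by -0.0194 between 0 h and control, 0.0109 between 0 h and depleted, and -0.0294 between the 96 h groups. These values over all tested genes show no strong shared deviation, but cannot tell whether same-numbered libraries were prepared together. Tables used pandas 2.3.3 and numpy 2.4.6, and plots matplotlib 3.10.9, on Python 3.11.15.

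The members and lists were chosen with earlier results of these data known. Genes named were all members, up to 4 called genes with the smallest adjusted p per list, tested genes within 500 kb of MYB or MYC, the 3 genes nearest in pattern to each, and CTCF. RRP12, TRRAP, KAT2A, SIN3A, SIN3B, NCOR1, USP28, TFRC, CCND2, LIN37, LIN52 and RBL1 were named after their values were seen, as were untested neighbours and CD34. The same holds for LYZ, ITGAM, NKG7, NCL, WDR74, POLR1B, CCNB1, PLK1 and AURKA. With 2 libraries a group, which library of a pair deviates cannot be told.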

Additional observations from a re-analysis of the deposited data

How the results depend on the processing

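Every member kept its direction under each alternative, except MXI1 in controls against 0 h, whose log2 fold change ran from -0.19 without 0 h replicate 2 to 0.0767 without 0 h replicate 1, and was 0.04 without control replicate 2. Leaving out single libraries gave 2 to 4 members higher in controls, the lowest without 0 h replicate 2, and otherwise moved no count of called members by over 1.5 times. MNT was also under the fold threshold without a filter on low counts (0.59), and MXD3 was above it in depleted cells with at least 10 counts in every library (0.61). With no fold threshold, 6 members were higher in depleted cells against 0 h, and 2 were higher and 2 lower in depleted cells than in controls. Over all genes, 10068, 10473 and 4341 were then called in the 3 comparisons, instead of 7124, 7742 and 1836. DESeq2, RLE scaling and a fit of the 4 libraries compared changed no call of a member. The fit with the replicate block changed 0 calls among the 123 results of members and other genes named by rule, but ended that of LIN37 in depleted cells against 0 h, and under it 4 members were higher and 3 lower in controls. The ratio of MYC to its repressors was 3.36, 0.315 and 0.484 with counts not divided by exon length, and 0.303 in controls with the canonical transcript, a choice made after seeing the data. Without single libraries it was 2.51 to 2.74, 0.259 to 0.284 and 0.38 to 0.421. MXI1 and MXD1 had the widest intervals against 0 h, and for MYCN no difference was detectable at this depth.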
